A study of Homo sapiens with 10 samples.

Results

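The 10 genes described here carry out or control the class I route of antigen presentation: B2M, HLA-E, TAP1, TAP2, TAPBP, PSMB8, PSMB9, PSMB10, ERAP1 and NLRC5. They were taken as a list of symbols, and each was read from a probe set annotated with that symbol alone. Where a gene had several such probe sets, the one with the highest mean log2 value was used. All 10 passed the filter on dim probe sets, and they stand among 14313 genes tested. RNA of DU145 and LNCaP, established lines from human prostate cancer, was hybridised to 10 Affymetrix arrays, 1 for each sample. The 2 PGK arrays of each line came from control cells whose vector has the ubiquitous PGK promoter in front of GFP and the gene for puromycin resistance. The 2 EOS arrays of each line came from cells in which OCT4 and SOX2 enhancers control the same pair of genes, and which were kept for some weeks in puromycin to enrich resistant cells. A single array per line came from EOS number 2 after ribavirin treatment, so the 6 groups hold 2, 2 and 1 arrays in each line. Every group thus carried a GFP and puromycin resistance vector, and the labels call none of the groups a clone. Whether the arrays of a group came from separate cultures is not given in the labels, and each p-value therefore rests on a spread between arrays that may be technical only.

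Class I molecules show short peptides from inside the cell to CD8+ T cells and natural killer cells. Proteasomes cut proteins, and cells exposed to interferon exchange the catalytic subunits of the constitutive proteasome for PSMB8, PSMB9 and PSMB10, the subunits of the immunoproteasome. The transporter formed by TAP1 and TAP2 moves peptides into the endoplasmic reticulum, where ERAP1 trims them and TAPBP (tapasin) holds empty class I molecules at the transporter until a peptide binds. B2M (beta-2 microglobulin) is the light chain of every classical class I molecule, HLA-E is a heavy chain read by natural killer cell receptors, and NLRC5 is the transactivator of class I genes. Interferon regulatory factors bind repeats of GAAA spaced by a few bases, and loss of class I genes is a known feature of many prostate tumours.

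Several members are neighbours in the major histocompatibility complex. By the RefSeq annotation of GRCh38.p14, TAP2 lies at chr6:32821831-32838739, PSMB8 at chr6:32840717-32844679, TAP1 at chr6:32845209-32853704 and PSMB9 at chr6:32854192-32859851. TAP1 is read leftwards and PSMB9 rightwards, with 487 bases between their starts. HLA-E lies at chr6:30489509-30494194 and TAPBP at chr6:33299694-33314078. The other members are elsewhere, B2M at chr15:44711517-44718145, NLRC5 at chr16:56989557-57083520, PSMB10 at chr16:67934506-67936850 and ERAP1 at chr5:96760813-96935854.

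The bases just before 4 of the outermost starts are shown. They are those of B2M and TAP1 (lower in LNCaP, as given below), PSMB8 (lower but not called) and PSMB10 (higher). RefSeq's table for GRCh38.p14 held a window for 8 of the 10 members, and the 250 bases before the start were searched on both strands for GAAA followed after any 2 bases by another GAAA, the core of an interferon response element, and for TTCNNNGAA, the gamma-activated site. Capitals mark a match of the first motif, in either orientation, and overlapping matches run together. Each sequence is written 5′ to 3′ on the strand of its gene: B2M from chr15:44711267-44711516 (plus strand), TAP1 from chr6:32853705-32853954 (minus strand), PSMB8 from chr6:32844680-32844929 (minus strand) and PSMB10 from chr16:67936851-67937100 (minus strand).
B2M: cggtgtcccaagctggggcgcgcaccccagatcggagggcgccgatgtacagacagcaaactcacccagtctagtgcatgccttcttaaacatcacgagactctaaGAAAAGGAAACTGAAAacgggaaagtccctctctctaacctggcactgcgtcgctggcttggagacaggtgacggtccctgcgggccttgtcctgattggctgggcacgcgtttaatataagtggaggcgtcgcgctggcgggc
TAP1: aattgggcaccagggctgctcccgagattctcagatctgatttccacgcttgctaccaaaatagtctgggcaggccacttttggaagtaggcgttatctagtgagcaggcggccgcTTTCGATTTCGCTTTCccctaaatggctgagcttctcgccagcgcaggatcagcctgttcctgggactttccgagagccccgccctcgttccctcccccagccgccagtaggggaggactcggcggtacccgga
PSMB8: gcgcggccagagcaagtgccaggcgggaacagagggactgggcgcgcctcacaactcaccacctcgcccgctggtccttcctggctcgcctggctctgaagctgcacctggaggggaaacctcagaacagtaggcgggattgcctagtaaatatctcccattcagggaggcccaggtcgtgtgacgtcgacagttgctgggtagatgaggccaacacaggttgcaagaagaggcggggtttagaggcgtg
PSMB10: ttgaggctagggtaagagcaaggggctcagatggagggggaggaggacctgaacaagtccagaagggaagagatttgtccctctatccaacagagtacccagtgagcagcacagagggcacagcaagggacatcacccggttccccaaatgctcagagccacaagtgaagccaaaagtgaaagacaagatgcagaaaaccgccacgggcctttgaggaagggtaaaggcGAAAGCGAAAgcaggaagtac
The interferon response core was found in the windows of 5 of the 8 members, against 3.02% of 35116 windows in the table. B2M held 2 overlapping matches, starting 144 and 138 bases before the start. TAP1 held 2, in the opposite orientation, from 134 and 128 bases before the start. TAPBP held 2, TAP2 held 1 and PSMB10 held 1, the last from 21 bases before its start. These letters were not in the windows of PSMB8, PSMB9 and ERAP1. The TAP1 matches do lie within the 487 bases between the TAP1 and PSMB9 starts, but outside the 250 searched for PSMB9. TTCNNNGAA was found in 0 of these 8 windows and in 6.57% of all windows. For TAP1, PSMB8 and ERAP1 the table holds another window, of a start further inside the gene, which makes 11 windows in all. None of those 3 held the interferon response core, and TTCNNNGAA was in 2 of them, of TAP1 (chr6:32852762-32853011) and PSMB8 (chr6:32844048-32844297). Both ERAP1 windows lie within the span of the gene given above. A match describes letters only, and the arrays did not measure binding.

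The lines could be told apart by their defining genes on every array. The LNCaP markers KLK3, KLK2 and TMPRSS2, products of androgen-responsive luminal cells, summed to 42543 to 69679 in LNCaP arrays and 48.6 to 69.7 in DU145 arrays. The DU145 markers CD44, VIM, GSTP1 and CAV1 summed to 45661 to 58787 in DU145 and 1374 to 4938 in LNCaP. Levels are scaled intensities: every array was brought to a 2% trimmed mean of 500, after which the array medians lay between 53.6 and 71.3. As deposited, number 1 arrays had trimmed means of 500 and number 2 arrays of 96.6 to 127. The end ratio of ACTB (its 3′ over its 5′ probe set, which rises as RNA or its copies get shorter) was 1.24 to 1.51 in number 1 and 3.20 to 3.99 in number 2, in both lines. The same ratio of GAPDH differed less, at 0.96 to 1.06 in number 1 and 1.09 to 1.22 in number 2. The array number is thus confounded with deposited scale and end ratio, and what else it stands for is not given in the labels. Each PGK and EOS group holds both numbers, whereas both ribavirin arrays are of number 2.

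**Figure D1:**
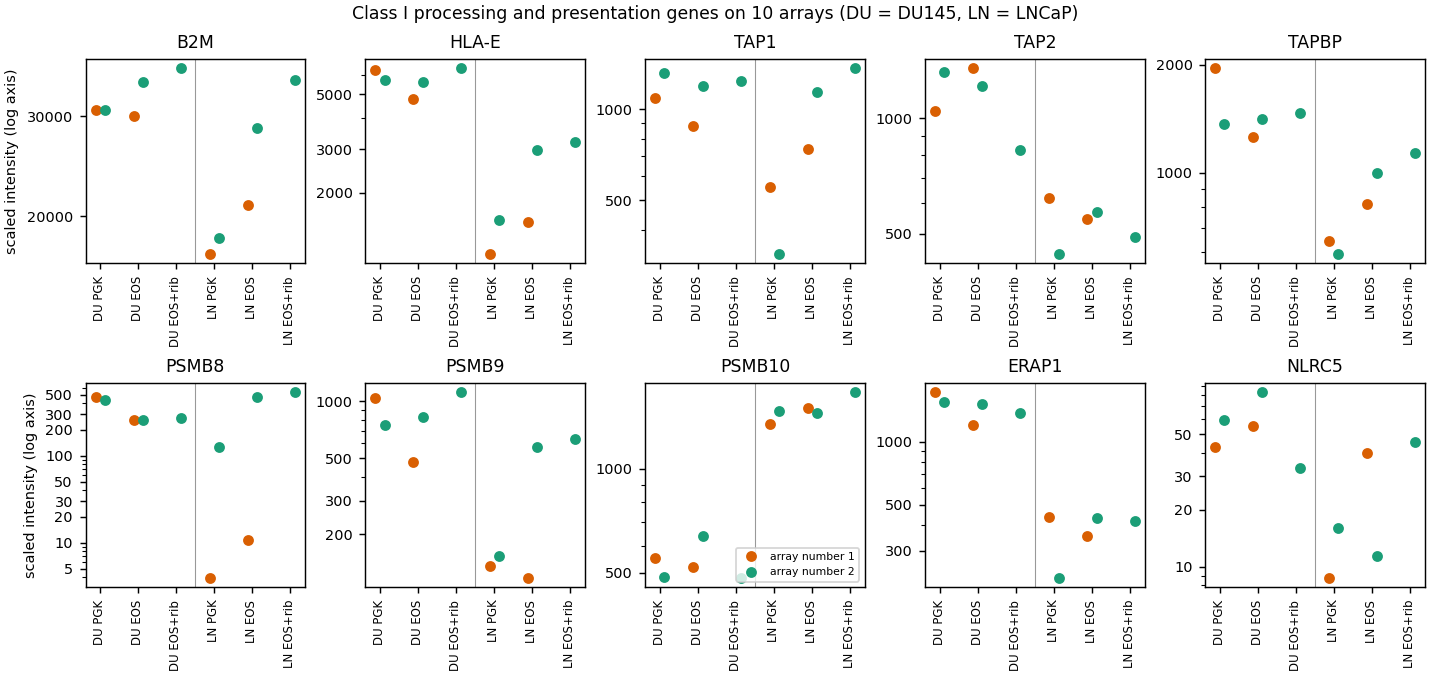
Scaled intensity (log axis, a separate range per gene) of the 10 members in the 6 groups, 1 point per array, coloured by array number, with DU145 on the left and LNCaP on the right of each panel. PSMB10 is the member whose LNCaP points all lie above its DU145 points, and PSMB8 in LNCaP spans 3.96 to 541.

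The first comparison was between the lines, over the 4 PGK and EOS arrays of each. Most of the members were lower in LNCaP: of the 9 apart from NLRC5, 7 were lower and 1, PSMB10, was higher at an adjusted p under 0.05 (limma with Benjamini-Hochberg adjustment over 14313 genes). Over all genes 46.3% passed in either direction, 23.7% lower in LNCaP and 22.6% higher. The median difference of those 9 was -1.16 on the log2 scale, against -0.01 for all genes. NLRC5 was called lower too, but it passed the filter on DU145 arrays alone and is given apart. Differences are in log2(scaled intensity + 16), which understates changes of dim genes, and each error after ± is a standard error from limma's moderated spread. In bulk RNA, fewer cells that express a gene and less RNA per cell cannot be told apart.

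The heavy chain gene HLA-E differed clearly. Its intensity was 1131 and 1559 in the LNCaP PGK arrays, 1521 and 2992 in the LNCaP EOS arrays, 6292 and 5714 in the DU145 PGK arrays and 4767 and 5622 in the DU145 EOS arrays. Every LNCaP array was below every DU145 array, and the difference was -1.72 ± 0.22, or 3.29-fold (limma adjusted p = 0.000317). The probe set used can bind related class I transcripts, but a probe set of HLA-E not of that kind gave -2.79, and another of that kind -1.21. B2M, one of the brightest probe sets measured, was 17167, 18328, 20977 and 28608 in LNCaP PGK 1, PGK 2, EOS 1 and EOS 2. It was 30733, 30764, 30045 and 34485 in the same order in DU145. The groups did not overlap, and the difference of -0.59 ± 0.12, or 1.51-fold, was the smallest among the members (limma adjusted p = 0.00316).

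The transporter and its partners were lower in LNCaP as well. TAP2, the second half-transporter, was 619, 442, 546 and 570 in LNCaP PGK 1, PGK 2, EOS 1 and EOS 2 and 1045, 1314, 1347 and 1212 in DU145, without overlap. TAP2 differed by -1.16 ± 0.17 (limma adjusted p = 0.000732). TAP1 was 554, 332, 738 and 1135 in LNCaP and 1087, 1320, 877 and 1192 in DU145, so that LNCaP EOS 2 lay among the DU145 arrays. TAP1 differed by -0.80 ± 0.23 (limma adjusted p = 0.0191), and the call was lost when DU145 PGK 2 (-0.73), DU145 EOS 2 (-0.69), LNCaP EOS 1 (-0.65) or LNCaP PGK 2 (-0.62) was left out. It was lost as well with the ribavirin groups included (-0.49, limma adjusted p = 0.0909). TAPBP, which keeps class I molecules at the transporter, was 644, 592, 820 and 996 in LNCaP and 1957, 1365, 1260 and 1414 in DU145. The TAPBP difference was -0.97 ± 0.17 (limma adjusted p = 0.00169), but it rests on the brightest probe set. A second one, above the array median on all 10 arrays, gave -0.33, and the dimmest, above it on 4, gave 0.34. With the mean of the kept probe sets TAPBP lost its call (-0.32, limma adjusted p = 0.239).

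ERAP1, the trimming peptidase, had the largest called difference among the members. Its intensity was 435, 223, 352 and 430 in LNCaP PGK 1, PGK 2, EOS 1 and EOS 2 and 1733, 1551, 1207 and 1519 in DU145. The difference was -2.05 ± 0.22, or 4.13-fold (limma adjusted p = 0.000135), with no overlap. The 4 other probe sets of ERAP1 gave -0.72, -0.15, 0.28 and 0.21, so the size rests on the brightest one. With the mean of the kept probe sets ERAP1 was still called, at -0.66 (limma adjusted p = 0.0464). Its paralogue ERAP2, which trims other peptides, was lower too, at 61.0 to 134 in LNCaP PGK and EOS arrays and 819 to 1078 in DU145 (-3.27 ± 0.20, limma adjusted p = 5.39e-06).

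The 3 immunoproteasome subunits did not go the same way. PSMB10 (beta2i), the member that was higher in LNCaP, was 1346, 1473, 1498 and 1452 in LNCaP PGK 1, PGK 2, EOS 1 and EOS 2 and 553, 488, 520 and 638 in DU145. Its groups did not overlap, and it was 2.59-fold higher in LNCaP (1.37 ± 0.15, limma adjusted p = 0.000125). PSMB9 (beta1i) was 136, 152, 118 and 575 in LNCaP and 1037, 753, 481 and 822 in DU145. LNCaP EOS 2 lay above DU145 EOS 1, and the difference was -1.84 ± 0.43 (limma adjusted p = 0.00733). PSMB8 (beta5i) differed by -2.20 ± 0.89 and was not called (limma adjusted p = 0.0733), because its LNCaP arrays were far apart, as given below.

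With array number as a block, the 9 members apart from NLRC5 passed, PSMB8 included (limma adjusted p = 0.000172), where 56.1% of all genes passed. NLRC5 passed too, but is not counted for the reason given next. PSMB8 differed by -2.91 without LNCaP PGK 2 and by -3.25 without LNCaP EOS 2. Those are its highest LNCaP PGK and EOS arrays, so leaving either out can only lower the LNCaP mean. Over all single arrays left out, PSMB8 ran from -3.25 to -1.15. NLRC5 was near the floor of the arrays, above the array median on 2 of 10, DU145 PGK 2 and DU145 EOS 2. It thus passed the filter only through the line in which it was high, although it was also called with no filter (limma adjusted p = 0.0261). It was 8.77, 16, 40.0 and 11.5 in LNCaP PGK 1, PGK 2, EOS 1 and EOS 2 and 42.6, 59.3, 55.4 and 83.4 in DU145. NLRC5 was called at -1.17 ± 0.38 (limma adjusted p = 0.0325), and the call was lost when any of the 4 DU145 arrays, LNCaP PGK 1 or LNCaP EOS 2 was left out (-1.43 to -0.91 over single arrays left out). It was lost too with the ribavirin groups included (-0.67, limma adjusted p = 0.153) and with the PGK groups alone (-1.24, limma adjusted p = 0.111). Its size depends on the pseudocount, with -1.80 at 1 and -0.59 at 64.

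By array, 5 members (B2M, HLA-E, TAP2, TAPBP and ERAP1) and NLRC5 had all 4 LNCaP values below all 4 DU145 values, as did 23.8% of all genes. PSMB10 had all 4 above, as did 22.4%. For each of these apart from NLRC5, which passed the filter only through DU145, an exact two-sided permutation test gave p = 0.0286. That is the smallest p that 4 arrays against 4 allow. Values without overlap always give it, so it restates the separation and adds no support. The test also treats PGK and EOS arrays of both numbers as exchangeable. For PSMB9, TAP1 and PSMB8, whose lines overlapped, the exact test gave p = 0.0571, 0.0857 and 0.143. On the intensities as deposited, without bringing the arrays to 1 scale, limma called 0 of the members and 481 of all genes.

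**Figure D2:**
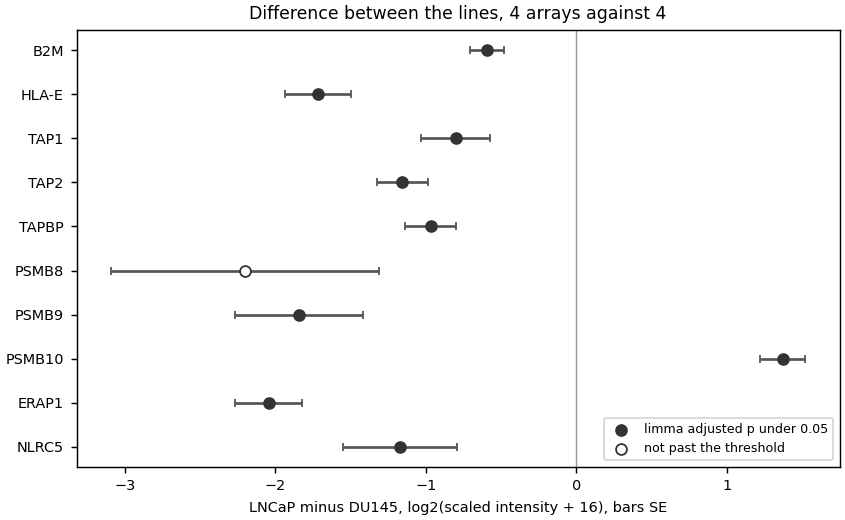
LNCaP minus DU145 for each member, in log2(scaled intensity + 16), with standard errors as bars, 4 arrays per line, and filled points for a limma adjusted p under 0.05. All members but PSMB10 lie left of 0, from -0.59 for B2M to -2.20 for PSMB8.

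Other genes of the route were counted from lists. Of 11 tested genes of loading and trimming, 6 were lower and 2 higher in LNCaP. The heavy chain genes HLA-B (-1.47 ± 0.20), HLA-G (-1.46 ± 0.20), HLA-F (-1.24 ± 0.15) and HLA-C (-0.49 ± 0.12) were among the lower ones, with the same caveat on related class I transcripts. CANX, a chaperone of new heavy chains, was lower (-0.49 ± 0.10). CALR, the chaperone of the loading complex, was higher at 0.94 ± 0.12, as was TAPBPL, a tapasin relative that edits peptides, at 1.25 ± 0.28, a gene above the array median on 5 LNCaP arrays and 1 DU145 array. Of 15 tested genes of peptide supply, 2 were higher (PSMA5 and PSME1, a subunit of the interferon-induced activator PA28) and 4 lower (PSMA2, PSMA4, PSMB6 and PSMB7). PSMB6 and PSMB7 are the constitutive counterparts of PSMB9 and PSMB10, and they differed by -0.50 ± 0.10 and -0.45 ± 0.14. PSMB7 and PSMB10 thus differed in opposite directions between the lines. PSMB5, the counterpart of PSMB8, was not called and was 8896 to 9811 in 3 LNCaP PGK and EOS arrays, 6901 in LNCaP EOS 2, and 7242 to 9814 in DU145.

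Of 19 tested regulators, 8 were lower in LNCaP and 1, CREB1, was higher (0.48 ± 0.14). JAK1, the kinase that carries the signal of interferon receptors, had the widest gap. It was 87.1, 111, 40.6 and 128 in LNCaP PGK 1, PGK 2, EOS 1 and EOS 2 and 4777, 4844, 4591 and 5537 in DU145. JAK1 differed by -5.60 ± 0.28 (limma adjusted p = 1.61e-06). The receptor chains IFNGR1 (-0.82 ± 0.15) and IFNGR2 (-0.68 ± 0.17) and the factors IRF9 (-1.52 ± 0.22) and IRF1 (-0.75 ± 0.21) were lower. So were NFYB (-1.20 ± 0.14) and RFX5 (-0.94 ± 0.19), DNA-binding subunits with which NLRC5 acts at class I promoters, and RELA of NF-kB (-0.61 ± 0.15). The other listed RFX and NFY subunits were not called and did not run lower in LNCaP. In LNCaP and DU145 PGK and EOS arrays, RFXANK was 1204 to 1543 and 637 to 1264, and RFXAP 553 to 754 and 400 to 608. NFYA was 944 to 1341 and 898 to 1062, and NFYC 502 to 1004 and 480 to 531. Among the interferon targets, ISG15 was higher in LNCaP (1.72 ± 0.14) and above the array median on all 10 arrays. GBP1, IFI44 and OAS1 were above the median on 4 LNCaP arrays and 0 DU145 arrays, so they passed the filter only through LNCaP and are given by level: GBP1 was at 35.7 to 157 in LNCaP and 1.13 to 6.14 in DU145. OAS1 was at 39.2 to 124 and 5.04 to 42.7, and IFI44 at 61.4 to 283 and 2.75 to 37.8. The 3 targets that were lower all belong to 1 family, IFIT1 (-2.83 ± 0.22), IFIT2 (-1.20 ± 0.37) and IFIT3 (-0.88 ± 0.28). The share called in each list is to be read against 46.3% of all genes.

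The second comparison, EOS against PGK within each line, is the one the study was designed for. In neither line did a gene pass: 0 of 10 members and 0% of all genes were called by limma in DU145, in LNCaP, for the mean of the lines and for the difference between them. At an unadjusted p under 0.05 there were 226 genes in DU145 and 596 in LNCaP, of which 0 and 2 were members. With array number as a block, 0 were called again, with 480 (3.35%) and 1297 (9.06%) genes at an unadjusted p under 0.05, of which 0 and 5 were members. Those 5, in LNCaP, were HLA-E, TAP1, B2M, PSMB8 and TAPBP, with limma adjusted p from 0.531 to 0.544.

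In LNCaP all 10 members had a fitted difference above 0, with a median of 0.51 against 0.05 for all genes. TAP1 gave 1.06 ± 0.32 (limma, unadjusted p = 0.00994, adjusted p = 0.999). From the arrays given above, it went from 554 to 738 in pair 1 and from 332 to 1135 in pair 2, or 0.40 and 1.73. B2M gave 0.47 ± 0.16 (limma, unadjusted p = 0.0207, adjusted p = 0.999), with pairs of 0.29 and 0.64. B2M, TAP1 and TAPBP had both LNCaP EOS arrays above both PGK arrays, which 18% of all genes had.

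The size of the LNCaP values lay mostly in pair 2. The median over members was 0.32 in pair 1, with 7 above 0, and 0.82 in pair 2, with 8 above 0, where 55.7% and 54.3% of all genes were above 0. PSMB8 gave 0.42 and 1.77, HLA-E 0.42 and 0.93 and TAPBP 0.34 and 0.73, so those 3 were above 0 in each pair. PSMB9 gave -0.19 and 1.81 and ERAP1 gave -0.29 and 0.90, so their sign differed between the pairs. TAP2 (-0.18 and 0.36) and NLRC5 (1.18 and -0.22) changed sign too, and PSMB10 stayed near 0 (0.15 and -0.02). LNCaP PGK 2, the control array of pair 2, stood apart in line markers. KLK2 was 5985 there and 15668 to 19105 on the other LNCaP arrays, TMPRSS2 was 3525 against 6514 to 10766, and KLK3 lay within the range of the others. The LNCaP markers thus differed between EOS and PGK in the direction of the members, 3 of 3 above 0 with a median of 0.85, and their part in the members' values was not tested. Without LNCaP PGK 2 the members' median was 0.59 with 8 of 10 above 0, and without LNCaP EOS 2 it was 0.18 with 8 above 0. Without LNCaP EOS 2, PSMB8 turned to -1.01 and PSMB9 to -0.26. Without LNCaP PGK 2, ERAP1 turned to -0.15 and TAP2 to -0.15. NLRC5 turned to -0.035 without LNCaP EOS 1, and PSMB8 to -0.33 without LNCaP PGK 1. These fits had no term for array number, so an array of 1 number was set against arrays of both. PSMB8 differed by number in LNCaP, as given below, and the part of number in these reversals was not tested.

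In DU145, 4 members were above 0 and 6 below, with a median of -0.22 against -0.02 for all genes. PSMB8 was 471 and 440 in the PGK arrays and 261 and 256 in the EOS arrays, so both EOS arrays lay below both PGK arrays, by 0.81 and 0.75 on the log2 scale. The shared fit gave -0.78 ± 1.26, with a standard error widened by the LNCaP arrays of PSMB8, and -0.78 ± 0.36 with array number as a block (limma adjusted p above 0.99 in each). HLA-E, PSMB8 and ERAP1 had both EOS arrays below both PGK arrays in DU145, which 16% of all genes had. HLA-E gave -0.40 and -0.02 in the pairs, ERAP1 -0.52 and -0.03, TAP1 -0.31 and -0.15 and PSMB9 -1.08 and 0.12. TAPBP gave -0.63 and 0.05. B2M differed by 0.07 ± 0.16 and changed sign to -0.093 under quantile normalization. Of the 7 fibroblast markers, POSTN and COL3A1 were clearly higher on DU145 EOS 2 and the DU145 ribavirin array than on the other 3 of that line. POSTN was at 1730 and 2020 against 31.9 to 135, and COL3A1 at 501 and 381 against 36.3 to 60.0. The sum of the 7, 2855 and 3199 against 447 to 780, was mostly POSTN. COL1A1 was 476 on DU145 EOS 2 and 488 on DU145 PGK 2. DCN was above the array median on 0 DU145 arrays, and COL1A2, LUM and PDGFRB did not pass the filter. The part of POSTN and COL3A1 in the members' values was not tested.

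The difference between the lines in the EOS effect was tested directly and was not called for any member. TAP1 gave 1.29 ± 0.46 (limma, unadjusted p = 0.0209, adjusted p = 1.00), and TAPBP 0.83 ± 0.34 (unadjusted p = 0.0377). TAPBP reversed to -0.16 when its kept probe sets were averaged. HLA-E gave 0.89 ± 0.44 and PSMB8 1.87 ± 1.78. PSMB8 reversed to -0.23 without LNCaP EOS 2, in a fit with no term for array number. With array number as a block the errors were smaller and 0 genes were called, with 4 of 10 members and 1032 of all genes (7.21%) at an unadjusted p under 0.05. PSMB8 was then 1.87 ± 0.51, HLA-E 0.89 ± 0.25, TAP1 1.29 ± 0.41 and TAPBP 0.83 ± 0.30 (limma, unadjusted p = 0.00662, 0.00704, 0.0143 and 0.0262, adjusted p from 0.648 to 0.674).

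**Figure D3:**
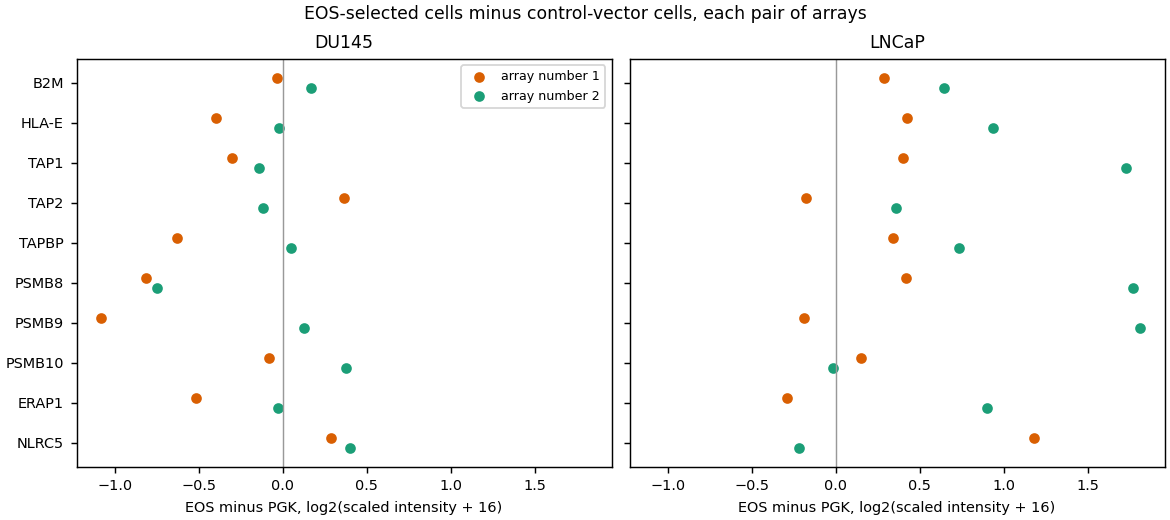
EOS minus PGK in log2(scaled intensity + 16) for each member, 1 point per pair of arrays of the same number, DU145 on the left and LNCaP on the right. In LNCaP the pair of number 2 reaches 1.81 for PSMB9, 1.77 for PSMB8 and 1.73 for TAP1, and in DU145 PSMB9 in pair 1 is lowest at -1.08.

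None of the listed genes of the route was called by EOS in either line, where 0% of all genes was. In LNCaP, 9 of 11 loading and trimming genes were above 0 and 4 had a limma unadjusted p under 0.05. Of all 14313 genes, 8016 were above 0 and 596 had such a p. The 4 were all heavy chain genes: HLA-B 0.93 ± 0.28, HLA-G 0.74 ± 0.28, HLA-C 0.72 ± 0.17 and HLA-F 0.57 ± 0.21. Their probe sets can bind related class I transcripts, so the 4 may not be separate readings. All 11 interferon targets were above 0 in LNCaP (median 0.51), where 8016 of all genes were. In DU145, 9 of 11 were below 0 (median -0.55), where 7558 of all genes were, and 0 targets were called in either line. Several targets, GBP1, OAS1 and IFI44 among them, were above the array median on 0 DU145 arrays. Their signs in DU145 therefore rest on values near the floor. Peptide supply went the other way in LNCaP, with 13 of 15 genes below 0 (median -0.10). PSME1 was an exception at 0.62 ± 0.19.

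The third comparison was ribavirin, a nucleoside analogue with antiviral use, against EOS. It rests on 1 array per line, whose spread is assumed to be that of the other groups, and limma called 0 of 10 members and 0% of all genes in each line and in the mean of the lines. At an unadjusted p under 0.05 there were 250 genes in DU145, 0 of them members, and 289 in LNCaP, 1 of them a member. With array number as a block 0 were called, with 364 and 405 genes at an unadjusted p under 0.05. Because the ribavirin arrays are of number 2, values against EOS 2 alone are given beside the fit.

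In LNCaP the ribavirin array held the highest value of TAP1 (1364), TAPBP (1134), PSMB8 (541), PSMB9 (629), PSMB10 (1668), HLA-E (3197) and B2M (34785) in that line. NLRC5 (45.7) was highest there as well, though below the array median, which makes 8 of 10 members, where 18.3% of all genes were highest on that array. This count rests on the brightest probe set of each gene. The other HLA-E probe sets were lower on the ribavirin array than on LNCaP EOS 2 (438 against 447, and 1307 against 1394). A second TAPBP probe set was lowest on the ribavirin array (84.3), and the dimmest was below LNCaP PGK 2. The other B2M probe sets were highest on it. B2M differed from EOS by 0.51 ± 0.20 in the fit (limma, unadjusted p = 0.0346, adjusted p = 0.999) and by 0.28 from EOS 2, with 0.37 ± 0.17 under the block. PSMB8 gave 2.29 ± 1.54 in the fit, where EOS 1 of 10.6 enters, but 0.53 ± 0.48 under the block and 0.19 from EOS 2. PSMB9 gave 1.20 ± 0.74 in the fit, 0.63 ± 0.61 under the block and 0.13 from EOS 2. Over the members the median distance from EOS 2 was 0.19 in LNCaP, against -0.01 for all genes.

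In DU145 the median distance from EOS 2 was 0.06, against 0.02. TAP2 was 825 in the ribavirin array, below all 4 other DU145 arrays (1045 to 1347), or -0.62 ± 0.30 from EOS in the fit and -0.55 from EOS 2. PSMB10 and NLRC5 were lowest on that array too, as were 17.9% of all genes. Another kept TAP2 probe set gave -0.17 from EOS 2 and a dimmer one 0.61. PSMB9 was 1117, the highest of the DU145 arrays, and gave 0.81 ± 0.74 in the fit and 0.43 from EOS 2. NLRC5 moved by -1.01 in DU145 and by 1.17 in LNCaP against EOS 2, at intensities between 11.5 and 83.4.

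The fourth comparison was between array numbers, over PGK and EOS together. That PSMB8 differed by number in LNCaP was known from earlier results of these data. Its p-values by number, in LNCaP and against DU145, therefore describe a known difference and are not independent tests of it. PSMB8 in LNCaP was 3.96 and 10.6 on the arrays numbered 1, below the array median, and 128 and 473 on those numbered 2. The number 2 arrays were 11.5-fold higher (3.52 ± 0.36, limma adjusted p = 0.00247), by 2.85 in PGK and 4.20 in EOS, and the LNCaP ribavirin array, also number 2, was at 541. PSMB8 was the 1 member of 10 called, where 6.45% of all genes (923, of which 515 were higher in number 2) passed. The size depends on the pseudocount, since the number 1 values lie under it: 5.02 with a pseudocount of 1 and 2.17 with 64. Without the intensity trend of the moderated spread the call was lost (limma adjusted p = 0.0501), and 105 genes were called.

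In DU145 PSMB8 was 471 and 261 in number 1 and 440 and 256 in number 2, a difference of -0.06 ± 0.36. There 0 of 10 members and 0% of all genes were called by limma (1113 genes at an unadjusted p under 0.05). End ratio and deposited scale differ between the numbers in DU145 too, as given above. The difference of the number effect between the lines was 3.58 ± 0.51 for PSMB8 (limma adjusted p = 0.0248), again 1 of 10 members, where 0.943% of all genes (135) passed. This call was lost without any 1 of the 4 DU145 PGK and EOS arrays (3.55 to 3.61), with a pseudocount of 64 (2.22, limma adjusted p = 0.0666) and without the intensity trend (limma adjusted p = 0.201).

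The other members in LNCaP moved less by number. HLA-E gave 0.71 ± 0.17 (limma adjusted p = 0.0523), with 0.46 in PGK and 0.97 in EOS. PSMB9 gave 1.14 ± 0.46 (limma adjusted p = 0.183), with 0.14 in PGK and 2.14 in EOS. Without either LNCaP PGK array, so that the LNCaP EOS pair alone gives the difference, HLA-E (0.97) and PSMB9 (2.14) were called beside PSMB8. That is 1 array against 1 in LNCaP, whose spread is assumed to be that of the other groups, and 4.28% of all genes were called without LNCaP PGK 1 and 4.36% without LNCaP PGK 2. HLA-E, PSMB8 and PSMB9 had the PGK and EOS arrays of number 2 above those of number 1 in LNCaP, a separation that 26.3% of all genes showed. In DU145, B2M, TAP1 and NLRC5 showed it, as did 22.4% of all genes. TAP1 in LNCaP was -0.71 in PGK and 0.61 in EOS, which left -0.05 ± 0.29, and B2M gave 0.27 ± 0.13. In DU145 HLA-E gave 0.05 ± 0.17 and PSMB9 0.15 ± 0.46. Thus of the 2 neighbours PSMB8 and PSMB9, PSMB8 was higher in both states of number 2, and PSMB9 mostly in EOS.

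**Figure D4:**
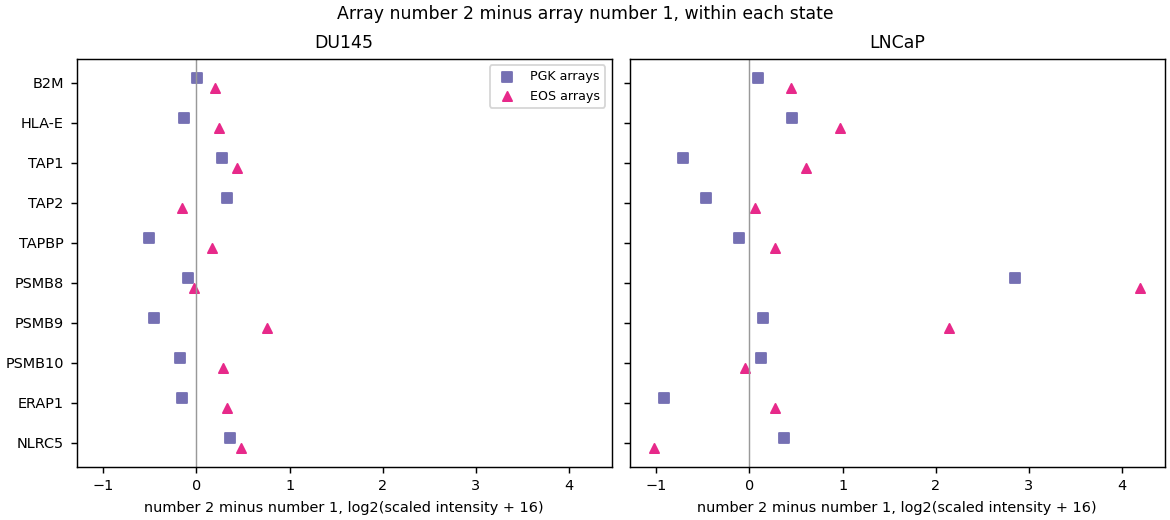
Array number 2 minus number 1 in log2(scaled intensity + 16) for each member, with PGK arrays as squares and EOS arrays as triangles, DU145 on the left and LNCaP on the right. PSMB8 in LNCaP lies at 2.85 and 4.20 and in DU145 near 0, and PSMB9 in LNCaP at 0.14 and 2.14.

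Of the leukocyte markers, LYZ, the lysozyme of myeloid cells, was low and high on the same LNCaP arrays as PSMB8. LYZ was 3.70 and 3.78 in number 1, 138 and 165 in number 2 and 192 in the ribavirin array. It passed the filter only through those last 3 arrays, so no test is given. The other 3 leukocyte markers that passed, CD3E (-0.28 ± 0.61), CD2 (-0.23 ± 0.49) and CD79A (-1.08 ± 0.47), were not called. PTPRC, the defining marker of leukocytes, was 3.85 to 50.7 on all 10 arrays and did not pass the filter. CD3D, CD14, MS4A1, ITGAX, CD86 and HLA-DRA did not pass either. The 11 leukocyte markers summed to 446 and 461 in number 1 and 350 to 573 in number 2 of LNCaP. The 7 fibroblast markers summed to 559 to 659 and 337 to 844. Of 19 tested regulators 1 was called by number in LNCaP, EZH2, the methyltransferase of the Polycomb complex (0.83 ± 0.16, limma adjusted p = 0.0251). Of 15 genes of peptide supply, 11 of loading and trimming and 11 interferon targets, 0 were called. These counts are to be read against the 6.45% of all genes called by number in LNCaP.

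The genes whose pattern over the 10 arrays was most like a member's, after each line's mean was taken off, were found by Pearson correlation as a description. These arrays share array number and processing. For PSMB8 they were SH3PXD2A (r = 0.99), MLF1 (0.98), HPSE (0.98), ACSS1 (0.98) and PYGL (0.97). Among members, HLA-E (0.91) and PSMB9 (0.85) came closest to PSMB8, and TAP2 (-0.23) was farthest. For PSMB9 they were ITGB4 (0.98), SP6 (0.97), ESCO1 (0.97), ALDH2 (0.97) and ASCC3 (0.97), with HLA-E (0.95) and B2M (0.89) the closest members. For TAP1 they were LIX1L (0.99), GOLGA2P10 (0.97), SQOR (0.97), KLF6 (0.97) and FAM86B2-DT (0.97), with B2M (0.87) and TAPBP (0.82) the closest members. PSMB10 stood at 0.28 to 0.32 and NLRC5 at 0.03 to 0.36 to those 3 genes.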

How the data were processed

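Total RNA of 10 cell line samples was measured, 1 array each. The deposited values are probe set intensities on a linear scale. Per the submitters' processing notes, MAS5 and affy were used, with no versions or roles, and background correction and scaling target are not given in the sources used here. The members and gene lists were chosen with earlier results of these data known. Because the deposited intensity was linear and on 2 scales, each array was first brought to a 2% trimmed mean of 500 and log2(intensity + 16) taken. Of 54675 probe sets, 62 controls were left out and 33451 above the array median on at least 2 arrays were kept, of which 27494 had 1 symbol, and the brightest per gene gave 14313 genes. Named genes were the 10 members, list genes past the threshold, the constitutive counterparts PSMB5, PSMB6 and PSMB7, markers, and the 5 genes most like TAP1, PSMB8 and PSMB9. The other listed RFX and NFY subunits were named beside RFX5 and NFYB.

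Tests used limma 3.58.1 in R 4.3.3 on group means (6 groups, leaving 4 residual degrees of freedom), with an intensity trend, and p-values were adjusted by Benjamini-Hochberg (threshold 0.05), and, for number, line-wise number terms (2 residual degrees of freedom). The scripts were tested on simulated data. Numbers paired the arrays: deviations from group means correlated at r = 0.12 in DU145 and 0.48 in LNCaP across genes, so a fit with number as a block was the alternative. Other alternatives were pseudocounts of 1 and 64, no filter, quantile normalization, deposited scale, mean of kept probe sets, no intensity trend, other sample sets for the line comparison and each array left out. The number of arrays limits the precision. Array detection calls were not used here. With 2 arrays against 2, an exact permutation test cannot go below p = 0.333.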

Additional observations from a re-analysis of the deposited data

Results flagged for a closer look

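PSMB8 differed between the lines in its effect of array number: number 2 minus number 1 was higher in LNCaP than in DU145 by 3.58 on the log2 scale, past the threshold of limma's test of that difference. The difference of PSMB8 by number in LNCaP was known before that test, which is thus not independent of it. For 3 members both pairs of EOS and PGK arrays went up in LNCaP and down in DU145. The LNCaP effect minus the DU145 effect was 1.87 for PSMB8, 1.29 for TAP1 and 0.89 for HLA-E, and limma's test of the difference called none of them (unadjusted p = 0.322, 0.0209 and 0.0749, adjusted p = 1.00 each). With array number as a block the unadjusted p was 0.00662, 0.0143 and 0.00704, and none was called.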

How the results depend on the processing

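Of 363 member values recomputed under settings other than leaving out an array, 341 kept direction and side of the threshold, 4 reversed, 16 lost a call and 2 gained one. Among 368 with 1 array left out, 334 kept both, 14 reversed, 14 lost a call and 6 gained one. The direction of each member between the lines was kept throughout. On the deposited scale the line comparison called 481 genes and 0 members. For EOS in DU145, B2M reversed to -0.093 with quantile normalization and to -0.13 on the deposited scale, and TAPBP to 0.17 with the mean of kept probe sets, which also turned its difference between the lines to -0.16. By number in DU145, 1 gene was called with a pseudocount of 64 and 1 with the mean of kept probe sets. By number in LNCaP, 2 members were called with that mean, and 105 genes and 0 members without the intensity trend. The difference of the number effect between the lines called 73 genes with a pseudocount of 1, 0 members with 64, and 0 genes and 0 members without the trend. The cause was not tested.

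With arrays left out 1 at a time, counts of genes ran from 0 to 4 for EOS in LNCaP, 0 to 6 for number in DU145, 474 to 878 for number in LNCaP and 67 to 193 for its difference between the lines. Counts of members ran from 1 to 3 for number in LNCaP and 0 to 1 for that difference. The EOS fits with an array left out had no term for array number. For EOS in LNCaP the ranges that crossed 0 were -1.01 to 3.19 for PSMB8 and -0.26 to 1.88 for PSMB9. ERAP1 (-0.15 to 0.76), TAP2 (-0.15 to 0.33) and NLRC5 (-0.035 to 0.99) crossed it too. For EOS in DU145, B2M ran from -0.033 to 0.17, and the PSMB8 difference between the lines from -0.23 to 3.97. By number, TAP1 in LNCaP ran from -0.71 to 0.61, HLA-E in DU145 from -0.14 to 0.24 and PSMB9 in DU145 from -0.45 to 0.75.

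The fit with a replicate block called 8027 genes between the lines, among them the 9 members apart from NLRC5. NLRC5, which passed the filter only through DU145, was called as well. PSMB8 at -2.20 was the added member, and no other member's call changed. Unscaled, the median of all genes for EOS in DU145 was -0.18. NLRC5 and PSMB8 in LNCaP number 1 lie near the floor, where signal over background limits their values.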
